A study of Mus musculus with 4 samples.

Results

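The subject is a set of 10 mouse genes, 6 of neutrophils (S100a8, S100a9, Ngp, Retnlg, Csf3r, Mmp8) and 4 of the acute phase response (Saa1, Saa2, Saa3, Hp), among 32151 genes measured as FPKM (reads scaled to the exon length of the gene and the depth of the library). The members were looked up by gene name, and all 10 were found. They had been chosen from a list that was drawn up with the ADPKD against WT result of these same libraries known, so their differences between the groups are a description and support nothing. RNA-seq was done on whole mouse kidney, with 2 libraries of a model of autosomal dominant polycystic kidney disease, ADPKD, in which tubules swell into cysts, and 2 of wildtype (WT) kidney. The ADPKD mice had the genotype Pkd1fl/fl; Cre/Esr1+, in which tamoxifen activates a Cre recombinase that cuts the floxed Pkd1 gene, and the labels give a tamoxifen dose of 10 mg/kg at postnatal day 10 for all 4 samples, WT included. The labels do not name the promoter that drives Cre, the age or the sex at sampling, or whether each library is from an animal of its own. Xist and Ddx3y, given below, differ between the ADPKD libraries, so those are not from the same animal. For the WT libraries this stays unknown, and p-values here rest partly on a spread that may be technical.

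Neutrophils are short-lived phagocytes made in the bone marrow, where they fill their granules in stages before they enter the blood. S100A8 and S100A9 form calprotectin, an abundant cytosolic protein complex of the mature cell, and neutrophil granule protein (Ngp) and collagenase (Mmp8) are packed into later granules. Serum amyloid A proteins and haptoglobin are acute phase proteins, which the liver secretes under the cytokines interleukin 6 and interleukin 1; Saa3 is the mouse form made largely outside the liver, by macrophages, adipocytes and epithelia. C/EBP transcription factors act both in granulocyte development and on acute phase promoters.

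The sequences upstream of S100a9, the most abundant of the 10 transcripts, and of the 3 amyloid genes are shown, the latter because Saa1 and Saa2 are near copies and Saa3 is not. RefSeq (GRCm38.p6) gave a promoter window for 9 of the 10 members, and for 6 of them it held 200 bases before the first annotated start. These 200 bases are printed 5′ to 3′ for 4 genes, with capitals on matches to the C/EBP-type motif TTNNGNAA on either strand, where matches may overlap.
S100a9 (chr3:90695722-90695921, minus strand): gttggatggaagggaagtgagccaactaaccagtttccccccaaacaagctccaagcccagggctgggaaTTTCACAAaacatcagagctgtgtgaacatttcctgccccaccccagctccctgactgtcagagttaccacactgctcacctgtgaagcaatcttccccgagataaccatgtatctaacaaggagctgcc
Saa1 (chr7:46742981-46743180, minus strand): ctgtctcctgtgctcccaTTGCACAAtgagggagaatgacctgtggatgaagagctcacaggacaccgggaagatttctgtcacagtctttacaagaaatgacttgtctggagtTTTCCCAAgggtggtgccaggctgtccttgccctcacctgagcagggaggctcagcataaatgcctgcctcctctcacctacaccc
Saa2 (chr7:46751590-46751789, plus strand): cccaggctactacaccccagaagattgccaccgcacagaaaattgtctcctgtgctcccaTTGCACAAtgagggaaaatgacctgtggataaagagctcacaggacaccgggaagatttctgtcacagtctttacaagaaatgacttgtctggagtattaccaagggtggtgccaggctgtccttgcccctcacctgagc
Saa3 (chr7:46715701-46715900, minus strand): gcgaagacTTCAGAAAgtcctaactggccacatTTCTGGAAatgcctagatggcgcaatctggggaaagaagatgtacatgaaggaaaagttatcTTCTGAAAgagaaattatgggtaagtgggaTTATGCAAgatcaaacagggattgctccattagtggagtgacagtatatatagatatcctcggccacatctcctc
The motif was present in 5 of the 6 windows, all but that of Retnlg, and in 30.8% of all 30476 promoter windows of the same length. Saa3 had 4 matches, beginning 192, 167, 105 and 75 bases before the start. Saa1 had 2 and Saa2 had 1, and both carry the stretch TTGCACAA, at 182 bases in Saa1 and 140 bases in Saa2. The STAT-type motif TTCNNNGAA, the TATA motif TATAAA and the consensus of NF-kB had 0 matches in the 6 windows, against 5.63%, 10.2% and 3.09% of all windows. Over the 300 bases of the RefSeq windows Saa1 and Saa2 were 95.3% identical in an alignment, and Saa1 and Saa3 50.9%. A match is a description of letters and not a site of binding.

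The 4 libraries held 18001308 to 19955120 reads assigned to genes, and tubule markers were present in each, Slc34a1 of the proximal tubule at 131 FPKM or more and Umod of the thick limb at 269 FPKM or more. Pkd1, the floxed gene, read 1.97 and 2.12 FPKM in the WT libraries, with 2.48 and 2.08 FPKM in the ADPKD libraries; a sum over all exons cannot show the loss of a few of them. ADPKD replicate 2 stood apart from the rest: Xist was at 29.6 FPKM there and at 0.0217 FPKM or less in the other libraries, and the Y-linked gene Ddx3y at 0.0482 FPKM against 8.46 FPKM or more. The sex that these genes mark thus differs within the ADPKD group, and its part in the values of the members was not tested. Red cell markers also differed, Hba-a1 standing at 692 and 151 FPKM in WT, with 71.5 and 34.6 FPKM in ADPKD.

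S100a9 had the highest level per length of the 10 genes in each library. S100a9 (chromosome 3, 90692632 to 90695721, GRCm38) read 0.417 and 1.06 FPKM in the WT libraries and 28.2 and 250.1 FPKM in the ADPKD libraries, replicate 1 before replicate 2 as in all pairs of values below. S100a8 (chromosome 3, 90668978 to 90670035), whose product pairs with that of S100a9, stood at 0.157 and 0.0800 FPKM in WT, with 10.4 and 134 FPKM in ADPKD. For both genes the groups lay apart, and the second ADPKD library was far above the first. The log2 fold change was 5.65 (SE 1.05) for S100a9 and 5.13 (SE 1.19) for S100a8 after adding 1 to each FPKM, a step that makes changes of low genes look smaller. S100a8 rested on 3 WT reads in all against 1986 ADPKD reads, a ratio of read rates of 625 with a 95% counting interval of 214 to 3035. Intervals of this kind cover counting error only.

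Ngp (chromosome 9, 110419747 to 110423012), which encodes a granule protein related to cathelicidin, was listed at 0 and 0.0909 FPKM in the WT libraries, with 0 and 33.9 FPKM in the ADPKD libraries. It was the only 1 of the 10 whose groups overlapped, with 827 reads in ADPKD replicate 2 and 0 in ADPKD replicate 1. A count of 0 allows up to 3 reads, here 0.132 FPKM, so ADPKD replicate 2 was at least 256-fold above ADPKD replicate 1. Mmp8 (chromosome 9, 7558456 to 7568485), the neutrophil collagenase gene, was listed at 0 in both WT libraries and at 0.733 and 8.18 FPKM in ADPKD. Against 3 reads per WT library, ADPKD replicate 1 was at least 10.8-fold higher and ADPKD replicate 2 at least 120-fold.

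Retnlg (chromosome 16, 48872621 to 48874496), which encodes a resistin-like protein secreted by neutrophils and marrow, was likewise listed at 0 in WT and stood at 3.36 and 39.5 FPKM in ADPKD. Its levels in ADPKD replicates 1 and 2 were at least 12.1-fold and 142-fold above 3 reads per WT library. Csf3r (chromosome 4, 126024550 to 126044440), the receptor of the growth factor G-CSF, behaved otherwise. It stood at 0.226 and 0.215 FPKM in WT, with 1.84 and 2.42 FPKM in ADPKD, a log2 fold change of 1.35 (SE 0.19), and the replicates of each group were close together. Its values rest on 15 and 14 reads in WT, and 10.5% of the 50-base windows of its transcripts also occur in other genes, so that some of its reads may belong elsewhere.

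Among the amyloid genes, Saa3 (chromosome 7, 46711998 to 46715700) had the widest gap between ADPKD libraries of the members with reads in both. It was at 0.0209 FPKM (1 read) and 0 in WT, at 0.930 FPKM (45 reads) in ADPKD replicate 1 and at 93.6 FPKM (4868 reads) in ADPKD replicate 2. Saa1 (chromosome 7, 46740497 to 46742980), a form carried on plasma lipoproteins, was listed at 0 in both WT libraries and stood at 1.30 and 4.61 FPKM in ADPKD. Its neighbour Saa2 (chromosome 7, 46751790 to 46754313) had 0 reads in WT, with 0.257 and 0.736 FPKM in ADPKD, a mean too low for the test. Of the 50-base windows of their annotated transcripts 31.5% in Saa1 and 30.0% in Saa2 also occur in another gene, for Saa2 in Saa1 alone, and counting kept reads that align more than once, which makes the split of reads between Saa1 and Saa2 uncertain. Saa3 shares 3.57% of its windows with other genes. The fourth gene of the cluster, Saa4, an amyloid gene that is not induced in the acute phase, stood at 0.0260 and 0.0796 FPKM in WT and was listed at 0 in both ADPKD libraries.

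Hp (chromosome 8, 109575128 to 109579172), encoding haptoglobin, which binds free haemoglobin, was at 0.406 and 0.657 FPKM in WT, with 19.5 and 33.9 FPKM in ADPKD. The groups lay far apart and the ADPKD libraries were near each other, with a mean of 26.7 ± 10.1 FPKM in ADPKD against 0.532 ± 0.177 in WT (SD, n = 2) and a log2 fold change of 4.13 (SE 0.30). The summed level of 6 red cell markers was 2303 and 492 FPKM in WT, and 277 and 108 FPKM in ADPKD, and 0 of the 5 tested passed, or 1 without WT replicate 2; their part in the Hp values was not tested.

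**Figure D1:**
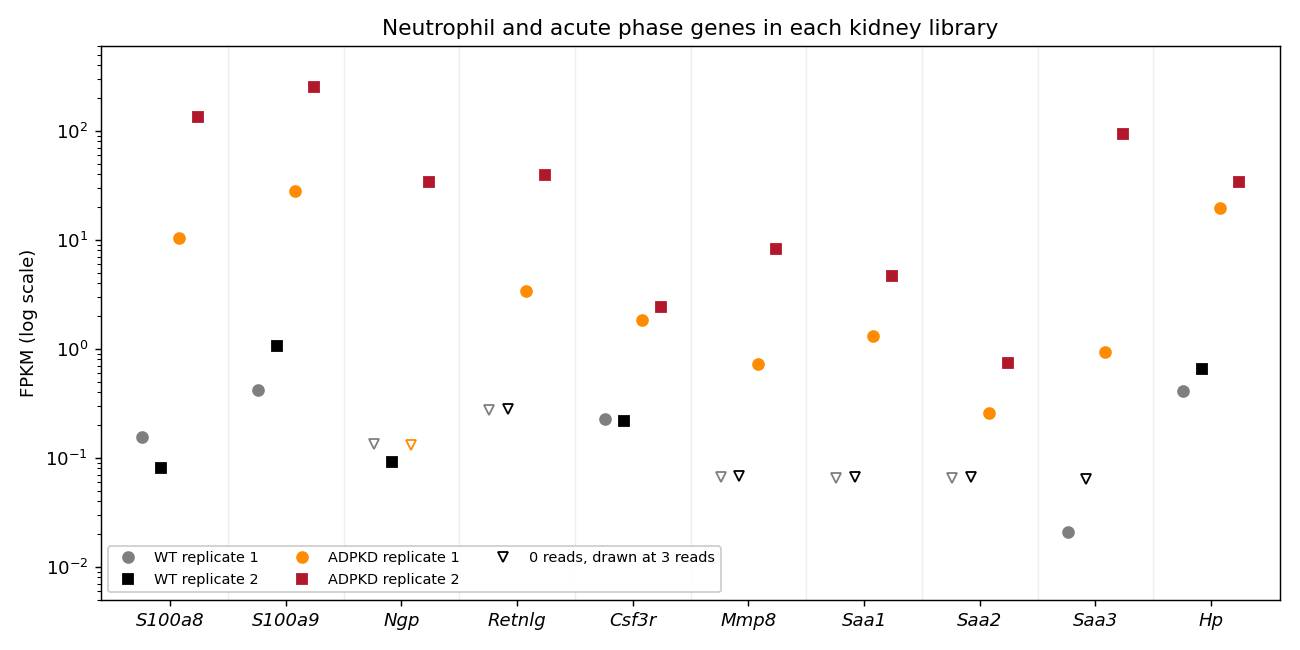
FPKM of the 10 genes (log axis) in the 4 libraries, 1 point per library; open triangles are libraries with 0 reads, drawn at the level of 3 reads. Both ADPKD libraries lie above both WT libraries for 9 genes, and ADPKD replicate 2 lies above ADPKD replicate 1 for all 10.

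For 8 of the 9 tested members, and for Saa2, both ADPKD libraries were above both WT libraries, an arrangement that 43.6% of the 17001 tested genes also showed. The limma test across those genes, on genes with a mean of at least 0.5 FPKM, covered 9 members (all but Saa2), and a member such as Mmp8 or Retnlg passed that filter only through the ADPKD values. At an adjusted p below 0.05 it called 9.43% of all tested genes higher (1604) and 4.78% lower (813) in ADPKD, and among the members S100a9, Csf3r and Hp higher and 0 lower. Since the same contrast chose the members, nothing is read from that count. Of the 12 alternatives Hp kept its call in all but the fit without ADPKD replicate 2 and that with no filter. S100a9 was not called after quantile normalization, median-of-ratios scaling, with the robust prior, with voom, with no filter or without WT replicate 1, WT replicate 2 or ADPKD replicate 2, and Csf3r lost its call with no filter and whenever 1 library was left out. Fits without 1 library leave a lone sample in a group, so only their median log2 fold changes are given here. For the members these were 3.35 without ADPKD replicate 2 (5 tested), 5.06 without ADPKD replicate 1 and 3.73 without either WT replicate. Over all genes they were 0.252 without ADPKD replicate 2, 0.0963 without ADPKD replicate 1, 0.215 without WT replicate 1 and 0.170 without WT replicate 2. The split of all genes depended on scaling, with 999 higher and 1102 lower after quantile normalization and 741 and 876 after median-of-ratios scaling; the median change of all genes was 0.18 (log2) with the values as deposited and -0.0125 and 0.00845 with these scalings. Over the 9 members the median was 3.73. In whole kidney, more cells of a type and more RNA per cell cannot be told apart.

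The members differed from each other in how far the ADPKD libraries lay apart. The ratio of ADPKD replicate 2 to replicate 1 was 12.9 for S100a8 (95% counting interval 10.8 to 15.3), 8.88 for S100a9 (7.84 to 10.1), 11.8 for Retnlg (8.42 to 16.4) and 11.2 for Mmp8 (7.83 to 15.9). The intervals of Retnlg and Mmp8 overlap those of both calprotectin genes, whose own intervals lie apart. Csf3r at 1.32 (1.04 to 1.66) and Hp at 1.73 (1.57 to 1.92) lay well below them. Saa1 at 3.53 (2.66 to 4.70) and Saa2 at 2.87 (1.50 to 5.50) lay between, and Saa3 at 101 (75.0 to 135) far above. All 10 members were higher in ADPKD replicate 2, while the median ratio over 16812 tested genes with reads in both was 0.893. Among those genes 0.482% had a ratio over 10, and 4 members did (S100a8, Retnlg, Mmp8 and Saa3). These are 2 libraries of the same group, so the ratios have no replicate check, and the library that is high is the one with Xist.

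**Figure D2:**
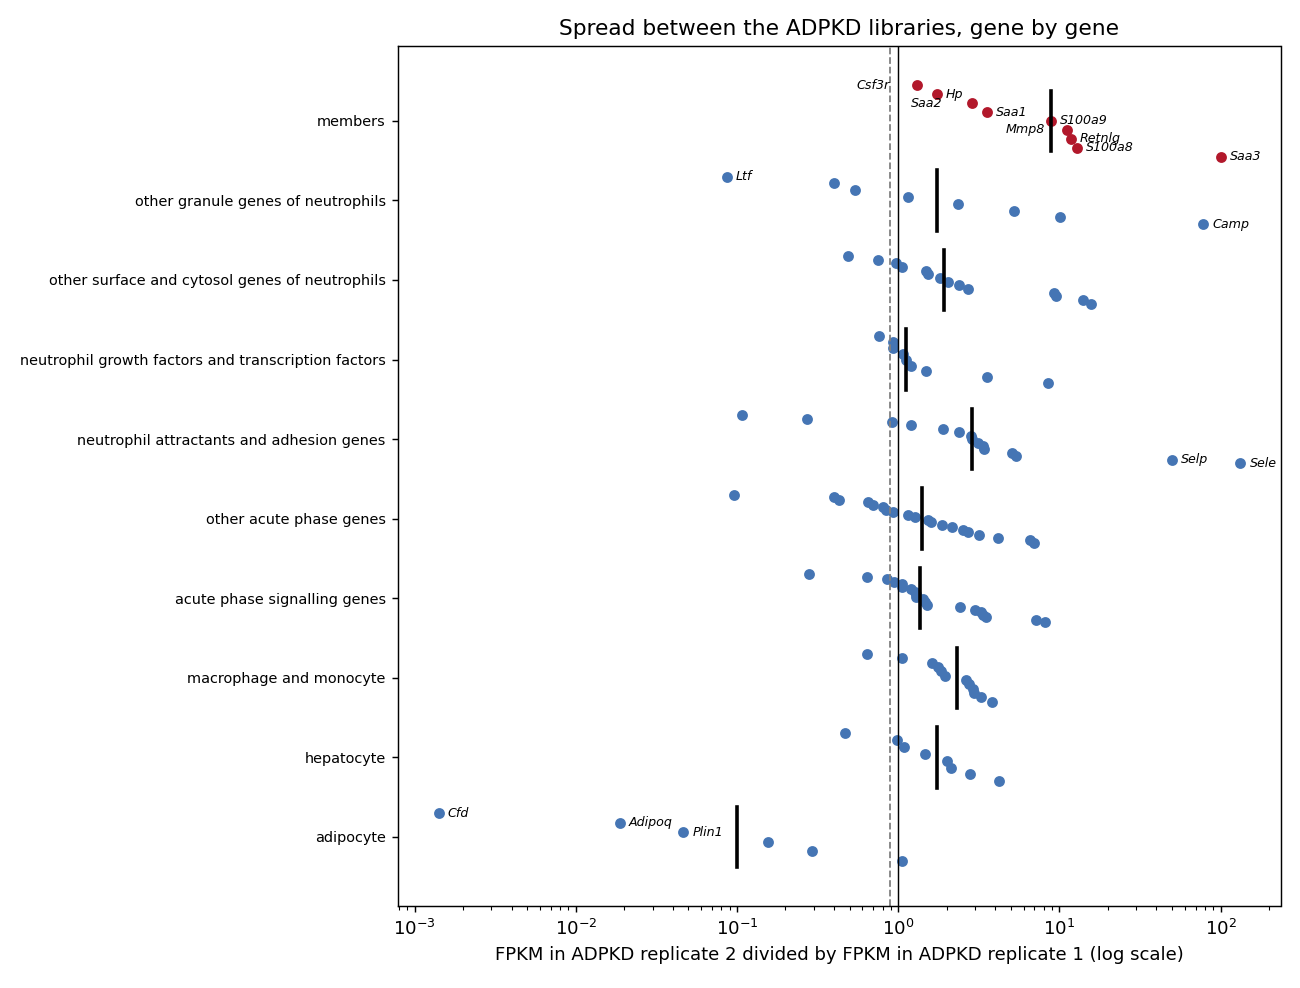
Ratio of FPKM in ADPKD replicate 2 to ADPKD replicate 1 (log axis) for genes with reads in both libraries, in rows by gene list; black bars are medians and the dashed line is the median of all tested genes, 0.893. Calprotectin, Retnlg and Mmp8 sit near a ratio of 10, Csf3r at 1.32, Hp at 1.73, Saa3 at 101, and most adipocyte genes below 1.

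Other genes of neutrophils were also uneven between the ADPKD libraries. Of 28 such genes 24 had values and 20 were tested: 9 rose, 0 fell and 11 did not pass, with a median log2 fold change of 1.97; over all tested genes these are 9.43% and 0.18. Without ADPKD replicate 2 the count was 0 of 14, without WT replicates 1 and 2 it was 2 and 1, and without ADPKD replicate 1 it was 15 of 19. Only 3 of the 24 had a mean of 1 FPKM or more in WT. A gene such as Cd177 or Fpr1, with 0 reads there, passed the filter only through the ADPKD values. For lists with such genes, here and below, counts and medians are a description. With no filter 1 of the 24 was called, with a median of 1.59. Over all 32151 genes 1 was then called higher, with a median of 0.0365.

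Surface and cytosol genes gave 7 of the 9 calls from 12 tested, other granule genes 2 from 7, and primary granule genes 0 from 1. Cd177, a glycoprotein of the neutrophil surface, was listed at 0 in both WT libraries and stood at 3.07 and 3.23 FPKM in ADPKD (log2 fold change 2.05, SE 0.17, limma adjusted p = 0.0175). Cxcr2, the receptor of neutrophil-attracting chemokines, was at 0 and 0.0365 FPKM in WT, with 1.24 and 1.20 FPKM in ADPKD (limma adjusted p = 0.0315). Like Csf3r, this receptor and Cd177 were level between the ADPKD libraries. Il1r2, a decoy receptor of interleukin 1, rose by 1.88 (SE 0.23, limma adjusted p = 0.0228), and Stfa2l1, a stefin-type protease inhibitor, rose by 3.23 (SE 0.40, limma adjusted p = 0.0239). Asprv1, a protease, the lectin receptor Clec4d and the receptor Trem1 rose by 2.08, 2.95 and 1.49.

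The formyl peptide receptor genes Fpr1 and Fpr2, which sense bacterial peptides and, for Fpr2, also amyloid A, did not pass. Fpr1 was listed at 0 in WT and stood at 0.895 and 12.6 FPKM in ADPKD, a ratio of 14.1 between the ADPKD libraries, and Fpr2 at 0.126 and 0.129 FPKM in WT, with 1.87 and 17.4 FPKM in ADPKD, a ratio of 9.30. Clec4e, a receptor of mycobacterial lipid, had a ratio of 9.48. Ly6g, the usual surface marker of mouse neutrophils, had 1 read in ADPKD replicate 1 and 17 in ADPKD replicate 2, a ratio of 15.8 with a 95% counting interval of 2.10 to 119. Itgb2l and Hdc, also of this list, had ratios of 0.755 and 0.489.

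Granule genes differed among themselves in the order of the ADPKD libraries. Lcn2, which is packed into neutrophil granules but is also made by injured tubule, was at 1.87 and 1.82 FPKM in WT, with 354 and 408 FPKM in ADPKD, nearly level between the ADPKD libraries (limma adjusted p = 0.00457). Ltf, the lactoferrin gene of neutrophils and of secretory epithelia, stood at 0.205 and 0.161 FPKM in WT, with 64.3 and 5.56 FPKM in ADPKD, higher in the first ADPKD library. Camp, the cathelicidin gene, had the opposite order, as Ngp did: 0 and 0.0733 FPKM in WT, 0.0711 (1 read) and 5.55 FPKM (84 reads) in ADPKD, a ratio of 78.1 with a 95% counting interval of 10.9 to 561. Pglyrp1, a peptidoglycan-binding protein, rose by 2.69 (SE 0.42, limma adjusted p = 0.0302) and was at 11.1 and 4.42 FPKM in ADPKD.

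Chil3, a chitinase-like protein of neutrophils and alternatively activated macrophages, stood at 2.77 and 28.0 FPKM in ADPKD, a ratio of 10.1, and at 0.0681 FPKM or less in WT. Mmp9, the gelatinase gene, stood at 1.57 and 3.70 FPKM in ADPKD and narrowly did not pass (limma adjusted p = 0.0506). Of the primary granule genes, which are expressed in marrow precursors, Elane had 0.0547 (1 read) and 0 FPKM in the ADPKD libraries and Prtn3 0.746 and 1.53 FPKM. Mpo and Ctsg were not among the 32151 genes with values. Olfm4, a granule gene also made by epithelia, stood at 6.02 and 7.67 FPKM in WT, with 11.4 and 6.19 FPKM in ADPKD, and did not pass.

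**Figure D3:**
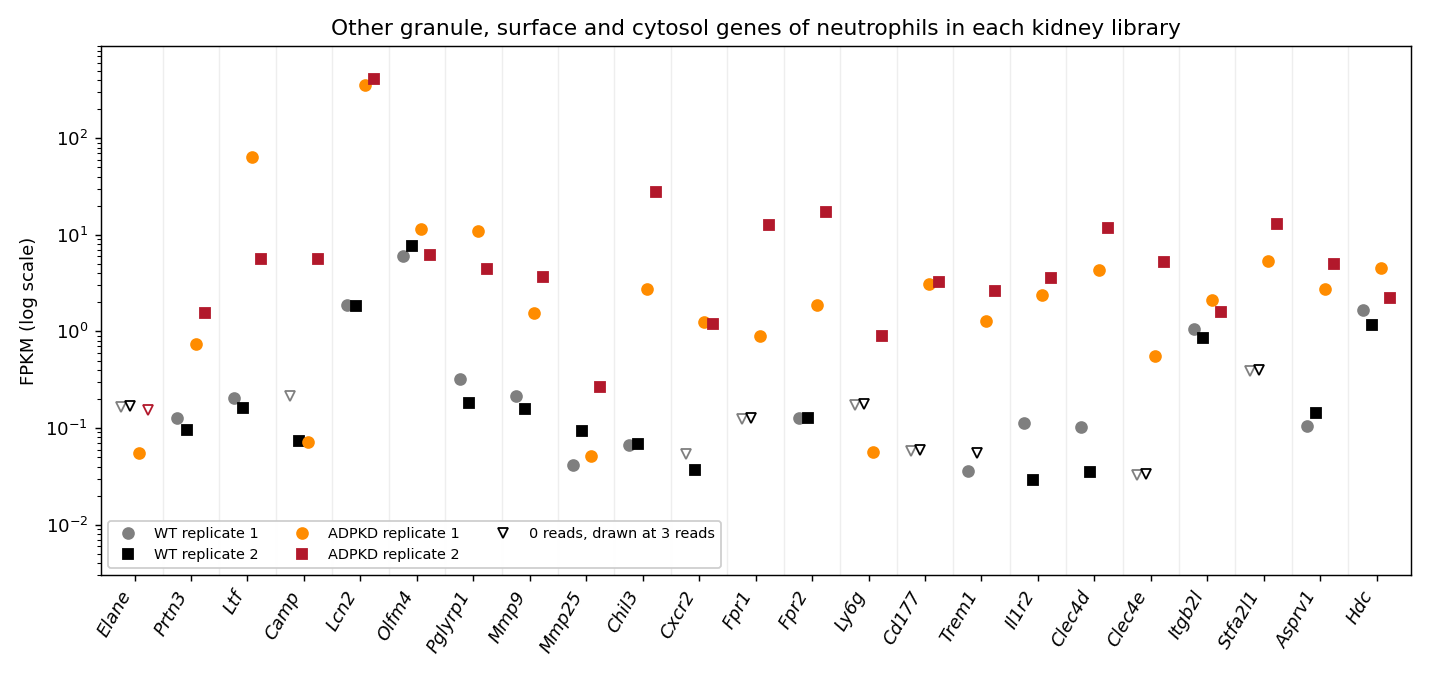
FPKM (log axis) of 23 of the other neutrophil genes in the 4 libraries, 1 point per library; open triangles mark 0 reads, drawn at 3 reads. Lcn2, Cd177 and Cxcr2 are level between the ADPKD libraries, Camp, Fpr1, Fpr2, Ly6g and Clec4e are higher in ADPKD replicate 2 (Camp and Ly6g on 1 read in ADPKD replicate 1), and Ltf is higher in ADPKD replicate 1.

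Of 6 tested genes of growth factors, their receptors, transcription factors and survival in the lineage, 3 rose and 0 fell. The 3 were the receptor genes Csf2ra, by 0.81, and Csf2rb, by 1.83, and the survival gene Mcl1, by 1.60. The count was 0 without either WT replicate 2 or ADPKD replicate 2, and 1 without WT replicate 1. Csf3, the gene of G-CSF, the ligand of Csf3r, was listed at 0 in WT and stood at 1.72 and 14.6 FPKM in ADPKD, and did not pass (limma adjusted p = 0.104). Spi1, a transcription factor of all myeloid cells, was at 1.31 and 1.65 FPKM in WT, with 5.56 and 19.7 FPKM in ADPKD, and did not pass. Cebpa, a C/EBP factor gene, went the other way, at 18.4 and 20.5 FPKM in WT, with 13.5 and 16.2 FPKM in ADPKD. Its log2 fold change was -0.37, and it did not pass. Cebpe and Gfi1, which act in granulocyte precursors, were at 0.0868 and 0.0341 FPKM or less in every library.

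Among the signals that attract and hold neutrophils, Cxcl1, a chemokine that acts through Cxcr2, was at 0.754 and 0.415 FPKM in WT, with 21.4 and 115 FPKM in ADPKD (log2 fold change 5.02, SE 0.80, limma adjusted p = 0.0317). Cxcl2, of the same family, was at 0.105 and 0.0537 FPKM in WT, with 17.5 and 59.0 FPKM in ADPKD (limma adjusted p = 0.0224). Of 14 tested attractant and adhesion genes 4 rose, Cxcl1, Cxcl2, Icam1 and Alox5ap, and 0 fell, with a median log2 fold change of 2.06. That count was 1 with median-of-ratios scaling, 2 with quantile normalization, 9 without ADPKD replicate 1, 1 without WT replicate 1 and 0 without WT replicate 2 or ADPKD replicate 2.

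Cxcl5, a chemokine that also acts through Cxcr2, was higher in the first ADPKD library, at 24.4 and 2.64 FPKM. The selectin genes Sele and Selp, with which activated endothelium slows passing leukocytes, were at 0.111 and 0.513 FPKM in ADPKD replicate 1 and at 14.7 and 25.7 FPKM in ADPKD replicate 2, against 0.0572 FPKM or less in WT. Their ratios were 133 (95% counting interval 59.5 to 297) and 50.1 (36.9 to 68.0), beside 101 for Saa3. By mean-centred log2 profile over the 4 libraries, the genes nearest to S100a9 outside the members were Cxcl1 (Euclidean distance 1.02), Socs3 (1.23), Serpina3n (1.25), Cxcl2 (1.29) and Ccl2 (1.34), and S100a8 itself lay at 0.758. Those nearest to Saa3 among the genes ranked were Xist (1.38), Ccl2 (1.52), Selp (1.53), Ccl7 (1.73) and Chil3 (1.94). Predicted genes, Rik genes, pseudogenes and immunoglobulin genes were left out of both rankings, and some of them may lie nearer. Gm3940, a predicted gene, had a like profile to Saa3, at 0.126 and 0 FPKM in WT, with 0.499 and 49.1 FPKM in ADPKD. With 4 libraries such likeness is a description; Xist and Saa3 share their high value in ADPKD replicate 2.

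Of 24 acute phase genes outside the set, 23 had values and 13 reached the filter of the test. Over all tested genes 9.43% were higher and the median log2 fold change was 0.18. Of the 13, 10 rose and 0 fell, with a median of 3.50. Besides Lcn2 they were C3 of complement (5.97), the fibrinogen chains Fgg, Fga and Fgb (5.47, 4.04 and 3.12), the antichymotrypsin-type inhibitor Serpina3n (4.50), the metallothionein Mt2 (3.88), the glycoprotein Lrg1 (3.50), ceruloplasmin, Cp (3.33), and the endotoxin-binding protein Lbp (1.67). Mt1, Steap4 and Cfb did not pass. With no filter 1 of the 23 was called, and the median was 1.10. The number that rose was 6 without either WT replicate, 7 with quantile or median-of-ratios scaling and 0 without ADPKD replicate 2. Cp and C3 were slightly lower in ADPKD replicate 2 than in replicate 1, with ratios of 0.846 and 0.808, while Serpina3n, at 8.51 and 56.0 FPKM, had a ratio of 6.58.

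Genes of several classical acute phase plasma proteins were low in every library. Crp was at 0.160 FPKM or less, Apcs at 0.286 FPKM or less, Hpx, the haem-binding hemopexin, at 0.371 FPKM or less and Orm1 at 0.487 FPKM or less. Orm2, with 0 reads in both WT libraries, stood at 0.278 and 1.16 FPKM in ADPKD. Serpina3m, also with 0 reads in WT, stood at 0.188 and 1.31 FPKM in ADPKD, and neither gene reached the filter of the test. Markers of hepatocytes gave 1 fall, Apoa2, and 0 rises among 6 tested, and the fall was lost when any 1 library was left out. Their summed level was 267 and 414 FPKM in WT, and 282 and 428 FPKM in ADPKD. Most of this sum came from Serpina1a, Serpina1c and Ttr. Ahsg and F2 of the same list were at 0.0684 FPKM or less in every library, and Cps1 and Tat had no values. Albumin (Alb) stood at 0.929 and 0.901 FPKM in WT, with 0.0920 and 0.0428 FPKM in ADPKD, while Serpina1a, at 152 and 223 FPKM in ADPKD, Serpina1c, at 51.4 and 109 FPKM, and Ttr, at 66.2 and 72.4 FPKM, were above Hp in both libraries. The part of these cells in the values of the members was not tested. The summed level of 6 adipocyte markers was 16.2 and 12.5 FPKM in WT, with 60.1 and 15.3 FPKM in ADPKD, and 0 of the 4 tested passed. Between ADPKD replicates 1 and 2, Cfd stood at 38.6 and 0.0544 FPKM, Adipoq at 3.86 and 0.0726 FPKM, and Cidec at 3.72 and 1.08 FPKM. Fabp4, the fatty acid binding protein gene that endothelium also expresses, was at 14.5 and 12.4 FPKM in WT and at 13.4 FPKM in ADPKD replicate 1, with a ratio of 1.05 between the ADPKD libraries. Adipocytes also express Saa3 and Hp, and their part in these values was not tested.

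The cytokine and transcription factor genes of the acute phase rose in 11 of 19 tested cases and fell in 0, with a median log2 fold change of 1.60. Il1b, the gene of interleukin 1 beta, was at 0.0570 and 0.146 FPKM in WT, with 9.94 and 32.5 FPKM in ADPKD (log2 fold change 4.12, SE 0.56, limma adjusted p = 0.0257). Socs3, a feedback inhibitor that interleukin 6 signalling induces, rose by 4.99 (SE 0.61) and Stat3, the transcription factor of that pathway, by 1.88 (SE 0.16). Lif, an interleukin 6 family cytokine, rose by 2.76, the oncostatin M receptor gene Osmr by 1.85 and the NF-kB cofactor gene Nfkbiz by 2.88. Il6 itself, singled out after its values were seen, was listed at 0 in WT and stood at 0.510 and 4.15 FPKM in ADPKD. It did not pass (limma adjusted p = 0.171). The C/EBP gene Cebpb, at 6.11 and 29.0 FPKM in WT, with 24.9 and 83.7 FPKM in ADPKD, had overlapping groups and did not pass. Cebpd, at 2.98 and 6.45 FPKM in WT, with 18.3 and 55.0 FPKM in ADPKD, did not pass (limma adjusted p = 0.0591). The count of 11 became 7 with median-of-ratios scaling, 5 and 2 without WT replicates 1 and 2 and 0 without ADPKD replicate 2.

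**Figure D4:**
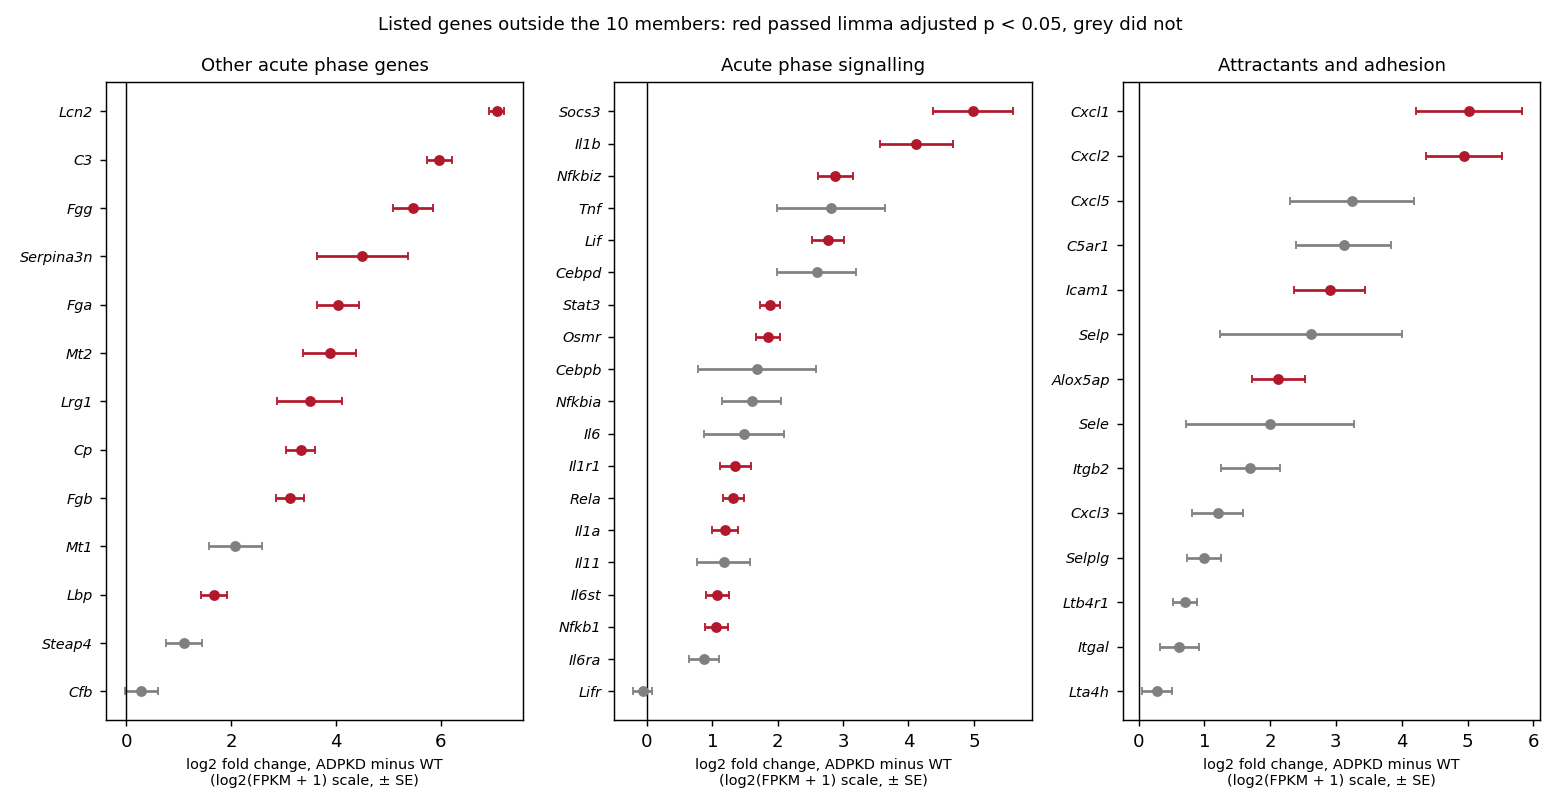
Log2 fold changes (ADPKD minus WT, log2(FPKM + 1) scale, bars ± SE, n = 2 per group) of tested genes in 3 lists outside the 10 members; red points passed limma at an adjusted p below 0.05 and grey points did not. Lcn2 and C3 lead the acute phase genes, Socs3 and Il1b the signalling genes, and Cxcl1 and Cxcl2 the attractants.

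Of 12 tested genes for receptors of the members' products and for partners such as Myd88 and Hmox1, 5 rose and 0 fell. Cd14, a co-receptor of TLR4, was at 3.52 and 3.59 FPKM in WT, with 50.1 and 104 FPKM in ADPKD (log2 fold change 4.01, SE 0.37, limma adjusted p = 0.0183). Tlr2, Tlr4, their adaptor Myd88 and Ager, a receptor of S100 proteins, rose by 2.68, 1.11, 1.06 and 0.98. Cd163, the scavenger receptor of haptoglobin with haemoglobin, was at 0.0697 and 0.112 FPKM in WT, with 3.35 and 14.7 FPKM in ADPKD and did not pass (limma adjusted p = 0.0507). Cd36, a fatty acid and amyloid A receptor, stood at 10.9 and 65.5 FPKM in WT, with 5.15 and 5.95 FPKM in ADPKD, and did not pass (limma adjusted p = 0.158). The 5 calls became 3 with quantile or median-of-ratios scaling, 1 without either WT replicate and 0 without ADPKD replicate 2.

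Of 12 macrophage and monocyte markers 7 rose and 0 fell, their summed level being 65.3 and 109 FPKM in WT and 566 and 1322 FPKM in ADPKD, and the median ratio between the ADPKD libraries was 2.30. Several members and listed genes are also expressed by these cells, and the macrophage part in their values was not tested. Leaving out either WT library left 1 macrophage marker called, median-of-ratios scaling 2, and leaving out ADPKD replicate 2, 0. T and NK cell markers had a summed level of 4.26 and 1.97 FPKM in WT and 2.25 and 2.37 FPKM in ADPKD, and B and plasma cell markers 2.33 and 2.22 against 1.93 and 3.10 FPKM, with 0 calls in 1 and 2 tests. Of 3 tested platelet markers Pf4 rose, by 2.65, a call lost without ADPKD replicate 2. Kidney tubule and podocyte markers fell in 5 of 9 tests and rose in 0; the 5 became 1 without ADPKD replicate 1 and 0 without any other library. Of the eosinophil, basophil and mast cell list 8 genes had values and 0 reached the filter of the test, Siglecf and Prg2 being at 0.0598 FPKM or less. Ms4a2, a mast cell and basophil receptor subunit of that list, was at 0.174 and 0.138 FPKM in WT, with 0.153 and 1.16 FPKM in ADPKD. Its ratio between the ADPKD libraries was 7.56 (95% counting interval 3.63 to 15.8). The mast cell gene Tpsb2 went the other way, at 0.648 and 0.314 FPKM in WT, with 0 and 0.0314 FPKM in ADPKD. Cpa3 and Cma1, also of mast cells, were at 0.0988 FPKM or less in every library.

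Genes beside the members on the chromosome were compared in the same fit. Within 100 kb of a member 52 other genes are annotated, 25 were tested, 3 rose (S100a6, Ptpn23 and Stk40) and 1 fell (Rpl28-ps3). Over all tested genes 9.43% were higher and 4.78% lower, so nothing is read from these few calls. S100a6, an epithelial and stromal S100 gene 44797 bases from S100a8, was at 29.8 and 8.86 FPKM in WT, with 317 and 312 FPKM in ADPKD (log2 fold change 4.18, limma adjusted p = 0.0254), level between the ADPKD libraries where S100a8 was not. S100a4, in the same cluster, stood at 1.77 and 0.761 FPKM in WT, with 1.94 and 1.03 FPKM in ADPKD. Around the amyloid cluster 0 of the tested genes were called, among them Saal1, 1318 bases from Saa3, at 1.33 and 1.22 FPKM in WT, with 1.67 and 1.36 FPKM in ADPKD. Hps5, 6153 bases from Saa2, stood at 12.2 and 11.2 FPKM in WT, with 8.07 and 5.41 FPKM in ADPKD and did not pass. Txnl4b, 1077 bases from Hp, had a log2 fold change of -0.15.

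**Figure D5:**
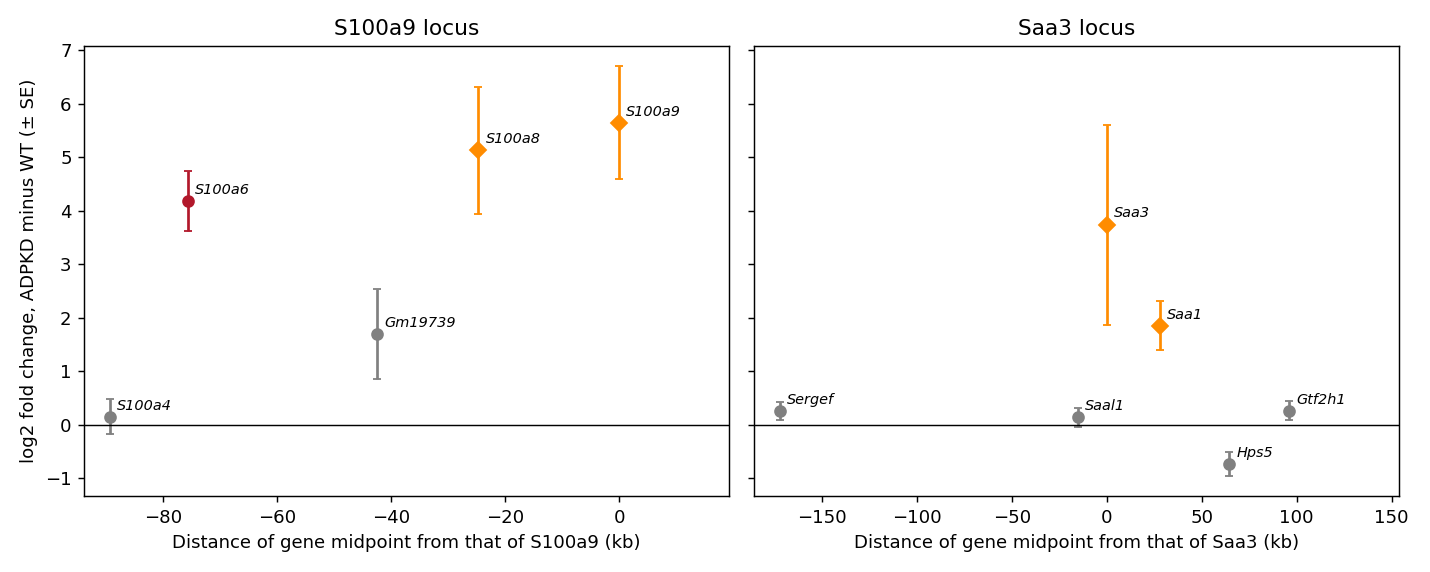
Log2 fold change (ADPKD minus WT, log2(FPKM + 1) scale, bars ± SE) of tested genes beside S100a9 and beside Saa3 against the distance of gene midpoints (kb); diamonds are members, the red circle passed limma at an adjusted p below 0.05 and grey circles did not. Next to S100a8 and S100a9 only S100a6 passed among the genes drawn, and next to Saa1 and Saa3 none did.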

How the data were processed

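Total RNA from whole kidney was selected with oligo dT and sequenced, per the labels' protocols. The deposited values are FPKM per gene, made by the authors; Bowtie2, DESeq2 and mm10 are named in the submitters' processing notes without role or version. Exon lengths (bases) and positions come from the deposited featureCounts 1.6.0 table with Ensembl release 98 of GRCm38, per the file headers, which counted reads with several alignments and set no strand option. Its 16 columns of per-sample values carry the names of 8 libraries and were not used. Of 32176 rows, 25 with names turned into dates were left out. FPKM multiplied by exon length gave whole reads for 100% of values within 0.01 reads, which gave the depth.

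Values were transformed as log2(FPKM + 1). The 17001 genes with a mean of at least 0.5 FPKM were tested with limma 3.58.1 (R 4.3.3, intensity trend, 2 residual degrees of freedom, prior 2.55), two-sided, with Benjamini-Hochberg adjustment over all of them; the script was tested on simulated data. An exact permutation test of 2 against 2 cannot fall below p = 0.333 and was not used. The members, the 17 further gene lists and the alternatives were chosen with earlier results of these data known. The rule for named genes took the members and lists with 15 or fewer tested genes (partly given as counts). From longer lists it took the 4 smallest adjusted p and the largest rises. It also took the 5 profiles nearest to S100a9 and to Saa3, with predicted, Rik, pseudogene and immunoglobulin genes left out. Called genes beside members were taken too, with Xist, Ddx3y and Pkd1 as checks. Other genes named were chosen after their values were seen. For a gene of 1 kb a single read gives 0.0501 to 0.0556 FPKM. Ratios within ADPKD carry 95% counting intervals. The values of 1 listed gene are not reported here.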

Additional observations from a re-analysis of the deposited data

How the results depend on the processing

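Each of the 9 tested members was higher in ADPKD under every alternative in which it was tested (S100a8, S100a9, Retnlg and Hp in all 12), while calls depended on the setting. Higher and lower genes numbered 1604 and 813 with the settings of the report. They were 1 and 0 with no filter (7251 at an unadjusted p under 0.05), 999 and 1102 after quantile normalization, 741 and 876 after scaling by the median of ratios, and 0 to 435 and 0 to 250 when 1 library was left out. Called members were 3 with the settings of the report, 6 with a pseudocount of 0.1, 2 with a mean of at least 5 FPKM, after either scaling and with the robust prior, 0 with no filter and 0 to 8 when 1 library was left out. The share of higher genes among the calls fell below that of lower genes with both scalings, which shifted the centre of all genes from 0.18 to -0.0125 and 0.00845 (log2). Fits without 1 library leave a lone sample that is assumed to vary like the other group.

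With the replicate number as a block, 1220 and 625 genes and 3 members were called. Of 5 red cell markers 3 fell with the block and 0 without it. Across the tested genes, the deviations of WT replicate 1 and ADPKD replicate 1 from their group means had a correlation of 0.19. Nothing in the labels pairs the libraries. Depth limits the WT side most: 4 members had 0 reads in both WT libraries, and 3 more had 1 to 3 reads. The fit that lacked ADPKD replicate 2 had 0 limma calls among 16978 genes and 5039 unadjusted p below 0.05.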
